A study of Mus musculus with 6 samples.

Results

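Fragments of ribosomal RNA (rRNA) were counted in 6 small RNA libraries of mouse serum. Their members were chosen as every listed sequence whose RNA class was given as rRNA, each listed under a single annotated rRNA gene. There were 130 such genes of 1922 genes and miRNAs listed in all, and they held 36606 reads. The serum came from healthy male and female 129/SVj mice, a laboratory strain, of 2 to 9 months, and no group carried a mutation or received a treatment beyond the tribromoethanol that sedated every mouse for bleeding. The libraries differed in the kit used to make them, and such kits join adaptors to the ends of RNA before reverse transcription and PCR. NEBNext, TruSeq small RNA library preparation kit v2 and TailorMix miRNA sample preparation kit v2 were each used for 2 libraries, numbered 1 and 2 after the labels Serum_1 and Serum_2. Per the study, the serum for these libraries came from individual mice and each kit was used in duplicate, but the labels do not say whether a number marks the same mouse or serum in each kit. The p-values therefore measure only the spread between these libraries, which may be technical. Serum holds RNA outside cells, so that no cell type markers were checked.

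Ribosomes carry a large subunit with 28S, 5.8S and 5S rRNA and a small subunit with 18S rRNA. The 18S, 5.8S and 28S rRNAs are cut from a single precursor made by RNA polymerase I, while 5S rRNA is made by RNA polymerase III from many short separate genes. Most 5S genes of the mouse lie in a tandem cluster, and further 5S-like copies, many of them pseudogenes, are scattered over the genome. In small RNA libraries of serum, rRNA reads are fragments of these molecules, and they are usually set aside as contaminants when miRNAs are the target.

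Nearly all listed rRNA reads were listed under 5S and 5S-like genes. Of the 354 genes of type rRNA in the GENCODE M21 annotation of the mouse genome GRCm38, 130 were listed in at least 1 library. By name, 100 of these were 5S genes, 29 had a gene-model name that gives no family, and 1 was a 5.8S gene, n-R5-8s1. The 5.8S gene had 9 of the 36606 reads, with 1 read in each NEBNext library, none in either TruSeq library and 5 and 2 reads in the TailorMix libraries. The TailorMix mean, from these few reads, was 2.34 times a floor of 3 counts in each TruSeq library, and the gene was not tested. No 18S, 28S, precursor or mitochondrial rRNA gene was listed, and whether the annotation used to make the lists held them was not tested. By name, the 354 genes of type rRNA in GENCODE M21 were 181 5S genes, 1 5.8S gene and 172 without a family. None of them was named as one of these other kinds. The share of reads under 5S genes therefore depends on the annotation and does not measure 5S against other rRNA in serum. Of the 130 genes, 123 shared a stretch of at least 15 bases with Rn5s, the reference 5S gene. A total of 62 genes were listed in all 6 libraries and 26 in 1 library only.

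The 51 genes of the 5S cluster, on chromosome 8 (GRCm38), were all listed and held 91.3% of rRNA reads. Within it, 32 copies, Rn5s among them, had one and the same sequence of 119 bases and held 24216 reads, or 66.2%. The 19 other copies of the cluster differed from it by 1 to 10 edits, 8 of them by 1, and held 9192 reads, or 25.1%. The 78 dispersed copies outside the cluster held 3189 reads, or 8.71%, and 46 of them had fewer than 10 reads over all libraries.

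Of the copies that the results below turn on, n-R5s125, a cluster copy, differed from Rn5s by 1 edit and n-R5s2, a dispersed copy on chromosome X, by 4. The dispersed copies n-R5s194 (chr3:4338998-4339116, plus strand) and n-R5s195 (chr3:39635964-39636082, minus strand) differed by 5 and 8 edits. The dispersed copies n-R5s56 and n-R5s205 lie at chr13:103396202-103396306 (plus strand) and chr2:120640711-120640835 (minus strand). n-R5s56 was 105 bases long and differed by 24 edits, and n-R5s205 was 125 bases long and differed by 26. The longest stretch that a copy shared with Rn5s was 55 bases for n-R5s2, 72 for n-R5s194, 29 for n-R5s195, 46 for n-R5s56 and 29 for n-R5s205. A fragment that lies in such a stretch matches the copy and the cluster equally, and the lists name 1 gene for it. The lists give neither the letters nor the length of a read, so that it was not known whether the same fragment was listed in different libraries, or under which copies it could have been placed.

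The rRNA share of annotated reads was higher in the TailorMix libraries than in the libraries of the other kits. Annotated reads, the sum of the miRNA list and of the other listed classes, lay between 5144833 and 26256012 per library, and rRNA reads between 3334 and 9760. In CPM, reads scaled to a total of 1000000 annotated reads in the library, rRNA was at 223 and 291 in NEBNext 1 and 2, 287 and 357 in TruSeq 1 and 2, and 1821 and 1841 in TailorMix 1 and 2. Both TailorMix libraries lay above the other 4, while the NEBNext and TruSeq libraries overlapped. As shares, these were 0.0257% ± 0.00483 (SD, n = 2) for NEBNext, 0.0322% ± 0.00493 for TruSeq and 0.183% ± 0.00146 for TailorMix, and the 95% Wilson intervals of single libraries, which cover counting error only, were narrow (0.0217% to 0.0228% in NEBNext 1 and 0.181% to 0.188% in TailorMix 2). The TailorMix mean was 7.13 times the NEBNext mean and 5.69 times the TruSeq mean.

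Over the 15 possible groupings of 6 libraries into 3 pairs, the exact permutation test between kits, two-sided, gave p = 0.133, where the smallest value this design allows is 0.0667. With all rRNA reads as 1 row of an edgeR quasi-likelihood fit of all features, the TailorMix minus NEBNext difference was 2.83 on the log2 scale (SE 0.35, Benjamini-Hochberg adjusted p = 0.00604), and 0.89 (adjusted p = 0.0615) with the total without tRNA reads as library size. TailorMix minus TruSeq was 2.51 (SE 0.35, adjusted p = 0.00751), and 2.00 (adjusted p = 0.00984) on that other scale. In these fits 33.9% and 41.5% of all features passed the threshold of 0.05. TruSeq minus NEBNext was 0.33 (SE 0.33, adjusted p = 0.470), with 34.5% of all features called, and it turned to -1.11 (adjusted p = 0.0345) with the total without tRNA.

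The denominator was mostly tRNA, whose fragments made up 95.5% to 98.9% of annotated reads. Of the reads that were not tRNA, rRNA was 2.09% and 2.29% in NEBNext, 0.905% and 1.13% in TruSeq and 4.01% and 4.13% in TailorMix. The 3 kits then did not overlap, with TruSeq the lowest (exact permutation p = 0.0667). Shares are relative, so that more rRNA fragments and fewer fragments of other classes cannot be told apart.

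A single sequence held a large part of the rRNA reads of the TruSeq libraries. The most abundant rRNA sequence had 808 and 613 reads in the libraries of the NEBNext kit, 1657 and 1969 in those of TruSeq and 359 and 382 in those of TailorMix. This was 13.8% and 12.4% of rRNA reads in NEBNext, 49.7% and 58.6% in TruSeq and 3.83% and 3.91% in TailorMix. The kits did not overlap, with means of 13.1% ± 1.00 (SD, n = 2), 54.2% ± 6.32 and 3.87% ± 0.0575 (exact permutation p = 0.0667, the smallest possible). Relative to annotated reads, it had 30.8 and 36.1 CPM in NEBNext, 142.6 and 209.1 in TruSeq and 69.8 and 72.1 in TailorMix, and the TruSeq mean was 5.26 times the NEBNext mean. In the TruSeq libraries the second sequence held only 2.55% and 2.11% of rRNA reads, against 4.86% and 4.45% in NEBNext and 3.51% and 3.81% in TailorMix. It was not known whether the most abundant sequence was the same molecule in any pair of libraries.

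**Figure D1:**
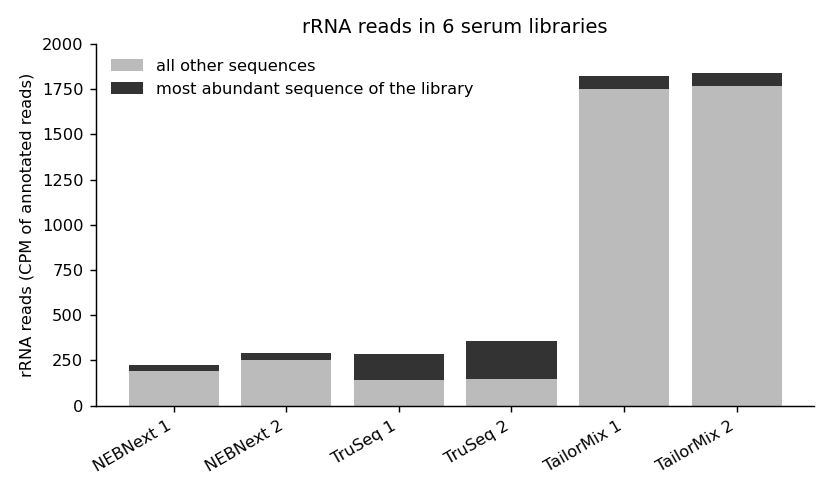
rRNA reads in CPM of annotated reads (vertical axis, bars from 0) in each of the 6 libraries, with the most abundant sequence of the library in black and all other sequences in grey. The TailorMix bars reach 1821 and 1841, the other bars stay at 223 to 357, and black reaches 142.6 and 209.1 in the TruSeq bars beside grey parts of 144 and 147; with reads other than tRNA as the denominator the TruSeq libraries lie below the NEBNext libraries.

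Without the most abundant sequence, the order of the kits changed. The remaining rRNA reads were at 192 and 255 in NEBNext, 144 and 147 in TruSeq and 1751 and 1769 CPM in TailorMix, with no overlap between kits (exact permutation p = 0.0667). The TruSeq mean was then 0.653 times the NEBNext mean, where it was 1.25 times with the sequence included, and the TailorMix mean was 12.1 times the TruSeq mean. Both TruSeq libraries had nearly the same level of the remaining rRNA reads, although the most abundant sequence differed between them by 142.6 against 209.1 CPM. This alternative was chosen after seeing the data.

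The rRNA reads fell on 387 to 906 distinct sequences per library, most of them rare. There were 808 and 753 distinct sequences in NEBNext, 429 and 387 in TruSeq and 874 and 906 in TailorMix (exact permutation p = 0.0667). Between 52.3% and 62.9% of the sequences of a library had 1 read. To reach 50% of rRNA reads took 20 and 21 sequences in NEBNext, 2 and 1 in TruSeq and 22 and 21 in TailorMix. To reach 90% took 284 and 287, 128 and 103, and 224 and 222 sequences. The inverse of the summed squared shares, which gives the number of equally abundant sequences that would be as concentrated, was 33.6 and 38.1 in NEBNext, 3.99 and 2.88 in TruSeq and 67.0 and 62.6 in TailorMix. By this measure the TruSeq reads were the most concentrated and the TailorMix reads the most even.

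**Figure D2:**
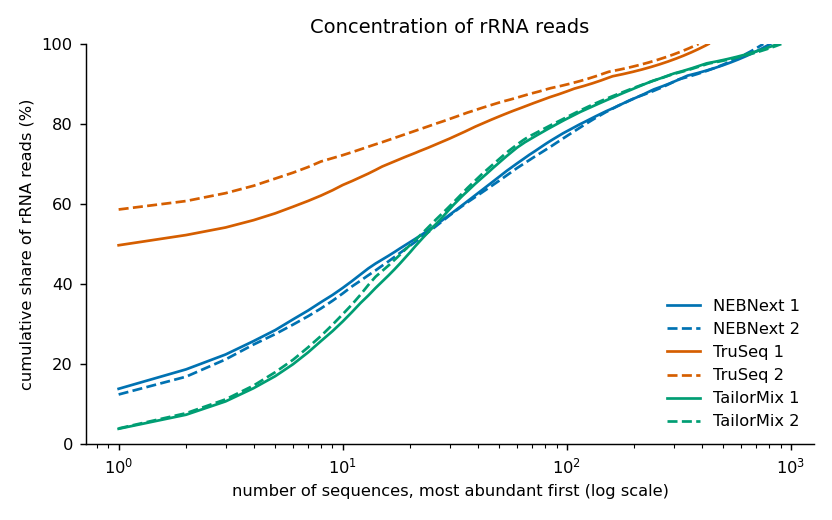
Cumulative share of rRNA reads in percent (vertical axis) against the number of sequences counted from the most abundant (horizontal axis, log scale), one line per library. The TruSeq lines start at 49.7% and 58.6%, the NEBNext lines at 13.8% and 12.4% and the TailorMix lines at 3.83% and 3.91%, and the lines of the NEBNext and TailorMix kits meet near 20 sequences.

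The number of distinct sequences depends on how many rRNA reads a library holds. At an equal 3334 rRNA reads, the expected number was 584 and 597 in NEBNext, 429 and 385 in TruSeq and 503 and 503 in TailorMix, so that TailorMix, above NEBNext in the counts as listed, lay below it. With the most abundant sequence left out and an equal 1389 reads, the expected number was 377 and 382 in NEBNext, 380 and 386 in TruSeq and 312 and 309 in TailorMix. NEBNext and TruSeq then overlapped, and TailorMix had the fewest.

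Other classes listed in the same libraries did not show the share of the most abundant sequence that rRNA showed in TruSeq. In the TruSeq libraries the most abundant sequence held a mean of 16.8% of tRNA reads, 10.6% of snRNA reads, 14.3% of snoRNA reads and 7.18% of piRNA reads, against 54.2% for rRNA. In TailorMix the order differed, with 20.3% for tRNA, 15.1% for snoRNA, 8.60% for snRNA, 4.28% for piRNA and 3.87% for rRNA. The means in NEBNext were 25.5% for tRNA, 14.2% for snRNA, 13.1% for rRNA, 4.69% for snoRNA and 2.58% for piRNA. These values are a description, and the difference between classes was not tested.

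**Figure D3:**
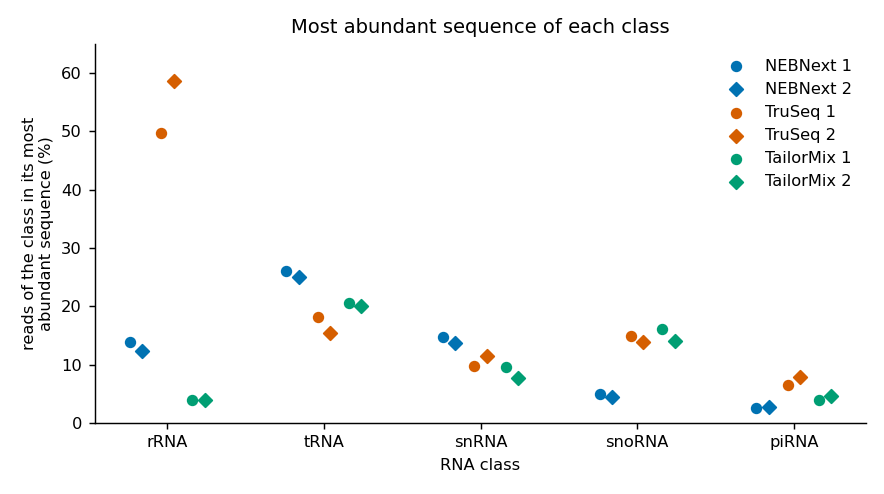
Share in percent of the reads of each RNA class that its most abundant sequence held (vertical axis), by class, with 1 point per library coloured by kit (circle, library 1; diamond, library 2). The TruSeq points for rRNA, at 49.7% and 58.6%, are the highest, and the TailorMix points for rRNA lie at 3.83% and 3.91%.

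The gene name under which the most abundant sequence was listed differed even between libraries of a kit. It was n-R5s136 and n-R5s133 in NEBNext, Gm24089 and n-R5s100 in TruSeq, and n-R5s100 and n-R5s205 in TailorMix. In TruSeq 1 this sequence made up 1657 of the 1664 reads of Gm24089, a cluster copy of 109 bases with 84 in 1 unbroken stretch of Rn5s, and Gm24089 had 5 reads in TruSeq 2. In TruSeq 2 it made up 1969 of the 2056 reads of n-R5s100, a copy identical to Rn5s, which had 42 reads in TruSeq 1. Likewise n-R5s136 had 919 reads in NEBNext 1 and 19 in NEBNext 2, and n-R5s205 had 382 reads in TailorMix 2, all from 1 sequence, and 1 read in TailorMix 1.

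In the mean of at least 1 kit, 50 genes held at least 1% of rRNA reads, of which 44 lay in the cluster and 6 were the dispersed copies n-R5s2, n-R5s194, n-R5s195, n-R5s205, Gm24573 and n-R5s1. The highest mean shares were 8.05% for n-R5s136 and 6.68% for n-R5s133 in NEBNext, 31.2% for n-R5s100 and 25.0% for Gm24089 in TruSeq, and 5.91% for n-R5s105 and 5.72% for n-R5s108 in TailorMix. In NEBNext and TruSeq these leading genes were the ones that received the most abundant sequence of a library.

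A split of the rRNA reads by gene name followed these placements. Genes without a family in their name held 17.5% and 12.9% of rRNA reads in NEBNext, 55.1% and 3.31% in TruSeq and 18.6% and 14.4% in TailorMix. The 2 TruSeq libraries were thus the lowest and the highest of all 6. Copies identical to Rn5s had 92.8 and 282 CPM in TruSeq and other cluster copies 171 and 47.1, so that the 2 sets exchanged their order between the TruSeq libraries. In TailorMix, where the most abundant sequence was small, identical copies had 1301 and 1266 CPM, other cluster copies 380 and 393 and dispersed copies 139 and 182, of which 72.1 in TailorMix 2 came from the most abundant sequence, under n-R5s205.

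The dispersed copies did not receive the most abundant sequence in NEBNext or TruSeq, and their summed level was closer between those libraries. They had 23.1 and 22.6 CPM in NEBNext and 22.8 and 27.3 in TruSeq, which overlapped. In NEBNext 1, 217 of their 607 reads came from 1 sequence under Gm24573 and 104 from 1 under n-R5s1. These genes had 10 and 2 reads in NEBNext 2. The close sums of the dispersed copies thus do not show that single copies agreed between libraries. As 1 row of the edgeR fit, TailorMix minus NEBNext was 2.81 (SE 0.28, adjusted p = 0.00349) and TailorMix minus TruSeq 2.68 (SE 0.28, adjusted p = 0.00386), where 34% and 41.5% of all features were called. Without TailorMix 2 they were 2.60 and 2.47 and still passed (adjusted p = 0.0224 and 0.0265). With the total without tRNA as library size the first was 0.85 (adjusted p = 0.0669) and the second 2.17 (adjusted p = 0.00758). The copies identical to Rn5s gave 2.90 (SE 0.66, adjusted p = 0.0291) and 2.78 (SE 0.65, adjusted p = 0.0286) for the same contrasts, and the other cluster copies 2.63 (SE 0.67, adjusted p = 0.0402) and 1.82 (SE 0.65, adjusted p = 0.0830). With the total without tRNA, the calls of both sets against NEBNext were lost, at 0.97 and 0.67 (adjusted p = 0.235 and 0.419), while identical copies against TruSeq gave 2.27 (adjusted p = 0.0443). All 3 calls were lost with trimmed mean of M-values (TMM) scaling and on leaving out either TailorMix library, those against NEBNext also without either NEBNext library and that against TruSeq without TruSeq 1. For TruSeq minus NEBNext the estimates were 0.13 for dispersed copies, 0.13 for identical copies and 0.81 for other cluster copies, with adjusted p = 0.708, 0.883 and 0.359 in edgeR. On the scale without tRNA these 3 turned to -1.32, -1.29 and -0.65, and the first passed the threshold (adjusted p = 0.0219).

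Because the 32 identical copies cannot be told apart by sequence, the reads under each of them show how reads were spread over equal genes. Their reads ranged from 16 to 366 per copy in NEBNext 1 (median 82.5), 17 to 645 in NEBNext 2 (69.5), 2 to 165 in TruSeq 1 (22.5), 3 to 2056 in TruSeq 2 (14), 27 to 671 in TailorMix 1 (137.5) and 18 to 814 in TailorMix 2 (144). Each library thus listed all 32 copies, with very unequal reads. Summed over the 6 libraries, reads per copy ranged 10.7-fold, from 258 to 2748, while the number of listed sequences per copy ranged 1.78-fold, from 51 to 91. Across the 32 copies, Spearman's rho of reads between the libraries of a kit was -0.336 for NEBNext, -0.0751 for TruSeq and -0.0402 for TailorMix. Between libraries of different kits it lay between -0.144 and 0.247. The reads of a copy thus showed no positive rank correlation between the libraries of a kit, although single copies were high in both, such as n-R5s108 with 671 and 417 reads and n-R5s105 with 326 and 814 in TailorMix. These correlations are a description across copies of 1 sequence that share their libraries.

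**Figure D4:**
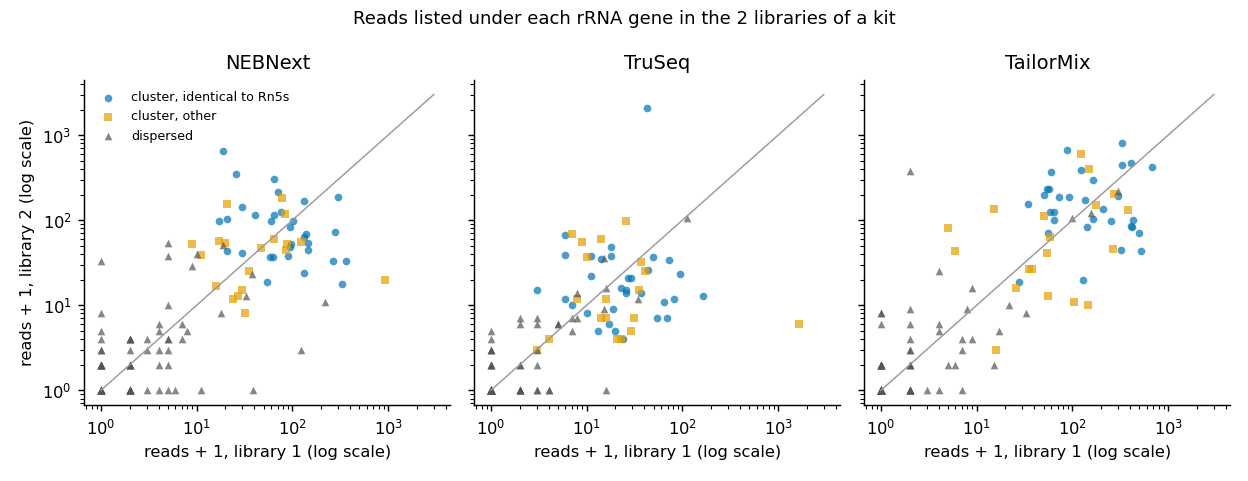
Reads + 1 under each listed gene other than the 5.8S gene in library 2 (vertical axis) against library 1 (horizontal axis), both on log scales, in a panel per kit, with circles for the 32 copies identical to Rn5s, squares for the 19 other cluster copies, triangles for the 78 dispersed copies and a line of equal reads. The circles scatter on both sides of the line without a trend, and in TruSeq the circle at 2056 reads and the square at 1664 reads lie far from it.

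Dispersed copies varied too, and some of their largest values came from 1 library. Gm24573, on chromosome 4, had 219 reads in NEBNext 1 and 10, 1, 6, 1 and 1 in the other libraries, with 217 of the 219 from 1 sequence. n-R5s1, on chromosome Y, had 121 reads in NEBNext 1 and at most 5 in any other library, with 104 from 1 sequence. Over the 11 dispersed copies with at least 50 reads, rho between the libraries of a kit was -0.178 for NEBNext, 0.797 for TruSeq and 0.384 for TailorMix. For the 19 other cluster copies it was 0.146, 0.0357 and 0.359.

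Tested gene by gene, 77 of the 130 rRNA genes had at least 4 counts in at least 2 libraries, which were all 51 cluster copies and 26 others. The remaining 53 were not tested. In TruSeq minus NEBNext, 3 rRNA genes were called higher and 1 lower at an adjusted p below 0.05 in edgeR, which is 5.19% of those tested, against 29.5% of all 932 features (12.9% higher and 16.6% lower). With the total without tRNA as library size, 2 were called higher and 10 lower, or 2.60% and 13.0%, where 6.65% and 34.4% of all features were. In TailorMix minus NEBNext, 18 were called higher, or 23.4%, where 23.4% of all features were called higher, 7.51% lower and 30.9% in either direction. In TailorMix minus TruSeq, 30 were called higher, or 39.0%, where 30.5% of all features were called higher, 9.44% lower and 39.9% in either direction. In these TailorMix contrasts 12 and 25 of the higher calls lay in the cluster. There 32 of the 51 copies have 1 sequence, so that several calls repeat it and are not of separate sequences. The counts of called genes moved with the fit, and so did those of all features. With the total without tRNA, 8 and 21 were called higher in these contrasts, or 10.4% and 27.3% beside 11.3% and 23.9% of all features, and with TMM 12 and 12, or 15.6% of the rRNA genes in each beside 16% and 17.4%. With 1 library left out at a time, 6 (without NEBNext 2) to 20 and 10 (without TruSeq 1 or TailorMix 1) to 22 were called higher, or 8.11% to 26.7% and 13.3% to 31.0%, where 12% to 23.2% and 14.4% to 30.8% of all features were. No rRNA gene was called lower in TailorMix in either contrast of the fit with 77 tested, and none had an unadjusted p below 0.05 in that direction in edgeR. In other fits, edgeR called 1 lower against TruSeq with TMM and 1 with the total without tRNA and 1 lower against NEBNext without a filter, and DESeq2 called 1 lower against NEBNext and 2 against TruSeq, where 4.32% to 20% of all features were called lower.

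In the fit with 77 genes tested and annotated reads as library size, the share of rRNA genes called in either direction was thus below or near that of all features in each comparison, although their median difference lay further from 0. For higher calls alone in the TailorMix contrasts, the rRNA share was the larger in some fits and near or below that of all features in others, as given above. Without a filter, 23.1% and 33.8% of rRNA genes were called higher, beside 12.8% and 16.6% of all features. With DESeq2 the shares were 26.0% and 29.9%, beside 18.5% and 22.1%. With at least 10 counts in 2 libraries they were 26.7% and 48.3%, beside 26.4% and 34.5%. The median log2 difference over the 77 rRNA genes was -0.83 in TruSeq minus NEBNext, 2.48 in TailorMix minus NEBNext and 3.28 in TailorMix minus TruSeq, beside -0.58, 0.66 and 1.34 over all features. Other scalings moved the median of all features to between -2.001 and -0.36, -1.23 and -0.25, and 0.15 and 0.83 in these contrasts, and the rRNA median turned negative in none of the TailorMix contrasts. Relative to the median of all features, the rRNA median was -0.30 to -0.22, 1.79 to 1.83 and 1.93 to 1.97 over the 4 scalings. A scaling shifts all features of a library nearly alike, so that these relative values could hardly move and do not test the difference. The reads of identical copies scatter between libraries as described above, and with copies of identical sequence merged, 37 rows were tested. Of these, 3, 10 and 8 were called in the 3 contrasts, all of them higher, where 32.2%, 33.2% and 40.2% of all features were called. The rRNA median of the merged rows was -0.40, 1.97 and 2.48, beside -0.54, 0.56 and 1.14 over all features, so that relative to all features it turned to 0.14 in TruSeq minus NEBNext and was 1.41 and 1.34 in the TailorMix contrasts.

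Among the tested rRNA genes, n-R5s2, the dispersed copy on the X chromosome with 4 edits, had the largest difference from NEBNext that passed the threshold, in TruSeq as in TailorMix. It had 7 and 4 reads in NEBNext, 112 and 105 in TruSeq and 295 and 218 in TailorMix, or 0.267 and 0.236, 9.64 and 11.2, and 57.3 and 41.1 CPM. The 3 kits did not overlap. TruSeq minus NEBNext was 5.31 (SE 0.38, adjusted p = 0.00254 in edgeR), TailorMix minus NEBNext 7.55 (SE 0.41, adjusted p = 0.00210) and TailorMix minus TruSeq 2.24 (SE 0.32, adjusted p = 0.00946). With the total without tRNA as library size the differences from NEBNext were 3.88 (adjusted p = 0.00380) and 5.61 (adjusted p = 0.00367). These reads came from 7 and 4 sequences in NEBNext, 11 and 11 in TruSeq and 57 and 42 in TailorMix. In TruSeq, n-R5s2 held 1 of the 5 most abundant sequences of each library, with 57 and 71 reads.

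The next dispersed copies, n-R5s194 and n-R5s195 on chromosome 3, were high in TailorMix and did not separate the other kits. n-R5s194 had 1.22 and 0.707 CPM in NEBNext, 1.21 and 3.72 in TruSeq and 30.3 and 22.8 in TailorMix. TailorMix minus NEBNext was 4.76 (SE 0.74, adjusted p = 0.0120 in edgeR) and TailorMix minus TruSeq 3.43 (SE 0.70, adjusted p = 0.0218). n-R5s195 had 37 and 22 reads in NEBNext, 33 and 11 in TruSeq and 99 and 106 in TailorMix, where TailorMix minus NEBNext was 3.85 (SE 0.54, adjusted p = 0.00922 in edgeR).

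The shorter copy n-R5s56 had a higher share of annotated reads in TruSeq and in TailorMix than in NEBNext. It had 3 and 2 reads in NEBNext, 15 and 15 in TruSeq and 3 and 4 in TailorMix, or 0.114 and 0.118, 1.29 and 1.59, and 0.583 and 0.755 CPM, so that the kits did not overlap. TruSeq minus NEBNext was 3.53 (SE 0.43, adjusted p = 0.00749 in edgeR) and TailorMix minus NEBNext 2.43 (SE 0.48, adjusted p = 0.0216). The former was 2.13 (adjusted p = 0.0171) with the total without tRNA. The latter compares 3 and 4 reads with 3 and 2, in libraries with fewer annotated reads, and is not given on that scale. TailorMix minus TruSeq, -1.09 (SE 0.41, adjusted p = 0.101), did not pass. n-R5s162, on chromosome 6, had 1 and 1 reads in NEBNext, 6 and 6 in TruSeq and 4 and 1 in TailorMix, and its TruSeq minus NEBNext difference passed with adjusted p = 0.0350 in edgeR. That call was lost without any one NEBNext or TruSeq library (adjusted p = 0.101 to 0.144), without a filter (0.0563), with the total without tRNA (0.0917) and with the replicate number as a block (0.0891).

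The copy called lower in TruSeq than in NEBNext was n-R5s125, named here after its values were seen. It had 4.65 and 3.24 CPM in NEBNext, 0.602 and 1.17 in TruSeq and 34.2 and 27.9 in TailorMix, and TruSeq minus NEBNext fell by 2.15 on the log2 scale (SE 0.46, adjusted p = 0.0310 in edgeR). Its sequence is also that of n-R5s112 and n-R5s120. The 3 copies together had 5.75 and 8.60 CPM in NEBNext and 4.65 and 11.9 in TruSeq, and the difference of the merged row was 0.20 (SE 0.54, adjusted p = 0.787).

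**Figure D5:**
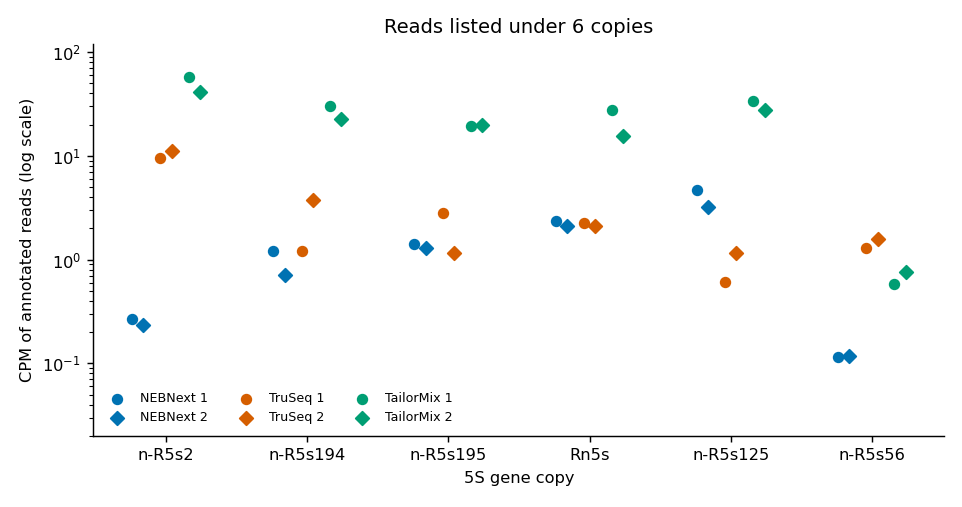
CPM of annotated reads (vertical axis, log scale) under 6 copies, with 1 point per library coloured by kit (circle, library 1; diamond, library 2). n-R5s2 rises from 0.236 to 0.267 in NEBNext over 9.64 to 11.2 in TruSeq to 41.1 to 57.3 in TailorMix, the n-R5s56 points of TruSeq, at 1.29 and 1.59, lie above those of the other kits, and Rn5s lies between 2.12 and 2.36 in the 4 NEBNext and TruSeq libraries.

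Among the other called copies with the widest differences, several had few reads in the lower kit. n-R5s209 had no reads in NEBNext, 1 and 1 in TruSeq and 7 and 8 in TailorMix (adjusted p = 0.00702 against NEBNext in edgeR). Its TailorMix mean was 9.87 times a floor of 3 counts in each NEBNext library. n-R5s93 had 1 and 0 reads in NEBNext and 21 and 9 in TailorMix (adjusted p = 0.0149 in edgeR). n-R5s5 had 4 and 3 reads in NEBNext, none in TruSeq and 6 and 2 in TailorMix (adjusted p = 0.0333 against TruSeq in edgeR). Its TailorMix mean was 2.68 times the floor in TruSeq, although the 2 reads of TailorMix 2 lie below 3 counts. These ratios leave out the counting error of the TailorMix reads.

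In the cluster, Gm23647 had 2 and 2 reads in TruSeq and 147 and 396 in TailorMix (adjusted p = 0.00674 in edgeR). Its sequence is also that of Gm24089, and together the pair had 1666 and 7 reads in TruSeq and 184 and 422 in TailorMix, which overlap. n-R5s105, identical to Rn5s, had 0.172 and 1.49 CPM in TruSeq and 63.4 and 154 in TailorMix, a difference of 7.03 (SE 1.52, adjusted p = 0.0250 in edgeR). Merged with the other identical copies, the difference was 2.78 (SE 0.66, adjusted p = 0.0298). Rn5s alone had 2.36 and 2.12 CPM in NEBNext, 2.24 and 2.12 in TruSeq and 27.4 and 15.5 in TailorMix, with TailorMix minus NEBNext of 3.25 (SE 0.42, adjusted p = 0.00778 in edgeR) and TailorMix minus TruSeq of 3.29 (SE 0.42, adjusted p = 0.00764). With the total without tRNA, higher calls against NEBNext fell from 18 to 8 among rRNA genes. The differences of Rn5s, n-R5s194, n-R5s195, n-R5s209 and n-R5s93 are given with annotated reads as library size only.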

How the data were processed

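Small RNA libraries of mouse serum were selected to a size of 125 to 153 bp, adaptors included, and sequenced. Per the study's methods, the authors trimmed adaptors (cutadapt 1.8.1), discarded short, adaptor-free and low-quality reads, aligned reads with Bowtie 1.1.2, allowing no mismatch, and annotated them by position on GRCm38. The deposited read counts, of each miRNA and of each distinct sequence of another class, are raw, and a read outside every annotation used is in neither list.

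rRNA reads were summed by gene, name and place, and shares taken of all annotated reads (5144833 to 26256012 per library). Gene identifiers were matched to GENCODE M21 (130 of 130 matched); cluster genes lie less than 10 kb apart. Edits were counted with edlib 1.3.9. The F ratio between kits was tested by exact permutation over 15 groupings. All features with at least 4 counts in 2 libraries, miRNAs and genes of all classes, were fitted with edgeR 4.0.16 (R 4.3.3; glmQLFit, glmQLFTest, annotated reads as library size, all 6 libraries, no block) with Benjamini-Hochberg adjustment over all features; DESeq2 1.42.0 was an alternative. In simulated TruSeq minus NEBNext counts, 198 of 200 features changed by 4-fold were called, as were 4 of 757 unchanged ones. The simulated spread between libraries (dispersion) was 0.05 for every feature, and features with few expected reads were not among the changed ones. This therefore does not give the share of changed rRNA genes that would be called in these data. The libraries of a kit differed beyond counting noise (chi-square per degree of freedom 2.13, 15.9 and 1.53 over miRNAs for NEBNext, TruSeq and TailorMix). Intervals and floors of 3 counts cover counting error only, since reads carried no molecular identifiers. Genes named are those with at least 1% of rRNA reads in a kit that the results turn on, up to 3 called, non-overlapping genes with the largest difference per contrast, and the gene of each library's most abundant sequence; 50 genes reached 1%, and most are given as counts. Members, lists and tests were chosen with earlier results of these data known. The sequences of the copies are not reported here.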

Additional observations from a re-analysis of the deposited data

How the results depend on the processing

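Log2 differences and ratios are given, and the cause of a change was not tested. With reads other than tRNA as the denominator, TruSeq over NEBNext turned to -1.11 for all rRNA (also as 1 row in edgeR), -1.31 for genes named 5S, -0.30 for genes without a family, -1.29 for copies identical to Rn5s, -0.65 for other cluster copies and -1.32 for dispersed copies. TailorMix minus NEBNext no longer passed there, at 0.89 for all rRNA, 0.97 for identical copies, 0.67 for other cluster copies and 0.85 for dispersed copies. Without the most abundant sequence, an alternative chosen after seeing the data, TruSeq over NEBNext turned to -0.61 for all rRNA, -0.48 for 5S and -1.49 for the genes without a family. With TMM, identical copies no longer passed (2.14 against NEBNext and 1.97 against TruSeq), nor did other cluster copies (1.84 against NEBNext). Distinct sequences turned to -0.23 for TailorMix over NEBNext at equal reads, and to 0.013, -0.29 and -0.30 for TruSeq over NEBNext, TailorMix over NEBNext and TailorMix over TruSeq at equal reads without the most abundant sequence.

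Counts of called rRNA genes depended on the fit, as did the share of all features called. For TruSeq minus NEBNext, higher calls were 6 in a fit of the 4 libraries alone, 6 with DESeq2 and 0 with rRNA merged into families, and the single lower call became 4 without a filter, 2 with at least 10 counts, 2 in the 4 libraries, 10 with the total without tRNA, 5 with DESeq2, and 0 with families or identical copies merged. Of all features, 5.36% (no filter) to 16.5% (DESeq2) were called higher and 8.74% (no filter) to 34.4% (total without tRNA) lower in these fits. For TailorMix minus NEBNext, higher calls were 30 without a filter, 8 with the total without tRNA, 10 with identical copies merged and 1 with families merged, and 1 was lower without a filter or with DESeq2, where 11.3% (total without tRNA) to 25% (families) of all features were called higher, and 4.32% and 18.1% lower. For TailorMix minus TruSeq, higher calls were 12 with TMM, 8 with identical copies merged and 1 with families merged, with 44 without a filter the highest, and lower calls were 1 with TMM, 1 with the total without tRNA and 2 with DESeq2. Of all features, 16.6% (no filter) to 30.8% (families) were called higher there, and 15.5%, 11.8% and 20% lower in the last 3 fits. Without a filter, 23.1% and 33.8% of rRNA genes were called higher in the TailorMix contrasts, beside 12.8% and 16.6% of all features. With DESeq2 these shares were 26.0% and 29.9%, beside 18.5% and 22.1%.

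The deviations of libraries with the same number correlated at 0.111, 0.152 and 0.0371 over 333 features for the 3 pairs of kits, so that the numbers were not taken to pair the libraries. With the replicate number as a block, lower calls in TruSeq minus NEBNext went from 1 to 0 and higher calls in TailorMix minus TruSeq from 30 to 17 (9.33% and 20.2% of all features), other cluster copies against NEBNext no longer passed (2.65), nor did n-R5s162 and n-R5s5. The calls of all rRNA, of identical copies and of dispersed copies in the TailorMix contrasts, and those of n-R5s2 in both kits and n-R5s56 in TruSeq against NEBNext, n-R5s209, n-R5s93, Gm23647 and n-R5s105, remained under the block.

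With single libraries left out, the lone library of a kit was assumed to vary like the others. All rRNA as 1 row kept its calls, at 2.65 to 3.04 (TailorMix minus NEBNext) and 2.36 to 2.67 (TailorMix minus TruSeq). Calls of identical copies were lost without any one NEBNext or TailorMix library (2.62 to 3.26, against NEBNext) and without TruSeq 1 or either TailorMix library (2.19 to 3.79, against TruSeq). Other cluster copies against NEBNext lost theirs without any one NEBNext or TailorMix library (2.57 to 2.70), and against TruSeq passed without TruSeq 1 (1.17 to 3.03). TruSeq minus NEBNext turned for identical copies without NEBNext 1 or TruSeq 2 (-0.89 to 0.72), for other cluster copies without TruSeq 1 while passing without TruSeq 2 (-0.40 to 1.46), for dispersed copies without TruSeq 2 (-0.0020 to 0.26), for genes named 5S without NEBNext 1 or TruSeq 2 (-0.76 to 0.66) and for genes without a family without TruSeq 1 (-1.70 to 2.05). TruSeq minus NEBNext then called 2 to 6 genes higher, 6 without either TailorMix library, and 0 to 2 lower, 0 without NEBNext 1 or TruSeq 2 and 2 without either TailorMix library, where 6.29% to 11.5% of all features were called higher and 6.53% to 14.2% lower. TailorMix minus NEBNext called 6 to 20 higher, with 7, 6 and 9 without NEBNext 1, NEBNext 2 and TailorMix 1, and TailorMix minus TruSeq 10 to 22, with 10, 18, 10 and 17 without TruSeq 1, TruSeq 2, TailorMix 1 and TailorMix 2, where 12% to 23.2% and 14.4% to 30.8% of all features were. The call of n-R5s162 was lost without any one NEBNext or TruSeq library, that of n-R5s93 without NEBNext 1, NEBNext 2 or TailorMix 1, that of n-R5s105 without TruSeq 1 or either TailorMix library, and that of n-R5s5 without NEBNext 2 or either TruSeq library.

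Depth limits the 53 genes below the filter, and with 2 libraries per kit no permutation p can go below 0.0667. No sequence was listed under several classes that include rRNA, so that counting such sequences as rRNA was not run.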
